A study of Mus musculus with 7 samples.

Results

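Heterotrimeric G proteins and RGS proteins, the switch proteins behind most neurotransmitter and peptide receptors and the factors that switch them off, were described in 7 RNA-seq libraries from mouse brain. The members were taken by gene symbol alone: every gene of the deposited table whose symbol begins as a G protein alpha, beta or gamma subunit gene or as a numbered RGS gene, leaving out opposite-strand transcripts named with os and pseudogenes named with -ps. This gave 57 genes of the 55367 in the table: 16 alpha subunit genes, 5 beta, 12 gamma, 21 RGS genes, 2 genes for R7-binding proteins (Rgs7bp and Rgs9bp) and Gnasas1, an antisense RNA of the Gnas locus that the symbol pattern also took in.

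The series compares CRS (n = 4 libraries) with noCRS (n = 3 libraries). Both groups were C57BL/6J mice labelled P90, and both carried the label of medial prefrontal neurons with projections into the lateral habenula. The labels do not spell out CRS; the series title speaks of chronic stress and of depression. Nothing in the labels ties a library to its own animal, and p-values here reflect the spread between libraries alone, which may be technical. The sources used here do not describe how the cells were marked or isolated.

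In the resting state an alpha subunit holds GDP and is bound to a beta-gamma dimer. An activated receptor exchanges the GDP for GTP, after which alpha and beta-gamma act separately on effectors such as adenylyl cyclase, phospholipase C beta and G-protein-gated potassium channels. RGS proteins speed up GTP hydrolysis by alpha subunits and so shorten the signal. In the cortex, Gi/o-coupled receptors for GABA, opioids, cannabinoids and monoamines work through these proteins, and Rgs4 is known as an abundant transcript of cortical pyramidal neurons.

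Library totals ran from 32346275 to 39740623 counts in CRS and from 28677703 to 39965667 in noCRS, of which the 57 genes took 0.432 to 0.567% in CRS and 0.310 to 0.348% in noCRS. Levels below are CPM after TMM normalisation, and 3 counts in 1 library corresponded to 0.0724 to 0.0990 CPM, a limit of counting error only. CRS replicate 2 stood apart on the first principal component of all tested genes, which held 30.4% of the variance. The neuronal label was met unevenly: summed over 8 excitatory cortical neuron markers (Nrgn and Neurod6 most abundant), levels ran from 496 to 747 CPM in CRS and from 20.1 to 39.9 CPM in noCRS, and summed over 7 general neuron markers (Snap25 and Syt1) from 2921 to 4128 CPM in CRS and from 357 to 433 CPM in noCRS. Not every neuron marker followed its sum. Map2, of the general list, averaged 175 ± 53.7 CPM in CRS and 186 ± 19.0 CPM in noCRS. Tubb3 of that list and Camk2a of the excitatory list also overlapped between the groups, with higher CRS means. Glial markers were abundant in both groups. The oligodendrocyte precursor sum (8 markers, Pdgfra and Olig1 highest) was 1344 to 1767 CPM in CRS and 2488 to 2815 CPM in noCRS. Pdgfra and Lhfpl3 of that list overlapped between the groups, with lower CRS means. The astrocyte sum (8, Apoe and Aldoc) was 6342 to 12937 CPM in CRS and 10772 to 14032 CPM in noCRS. Of the astrocyte list, Apoe alone lay lower in every CRS library. Gfap lay higher in every CRS library, at 76.0 ± 26.2 CPM in CRS and 27.7 ± 21.7 CPM in noCRS. In bulk libraries fewer cells of a type and less RNA per cell cannot be told apart, and the part of this marker difference in the results below was not tested.

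Of the 57 genes, 42 passed edgeR's expression filter and 4 rose in CRS: Rgs4, Gng2, Gnas and Gnai1. That is 9.52% of the tested members, where 2.07% of all 17833 tested genes rose (quasi-likelihood F test of edgeR, p-values adjusted over all tested genes by Benjamini-Hochberg, threshold 0.05). Over all genes 369 were called higher and 41 lower, and 248 higher and 64 lower with scaling by library totals alone, which moved the median log2 fold change by -0.16. No member was called lower by edgeR, which called 0.23% of all tested genes lower. DESeq2 and limma-voom also called 0 members lower, beside 2.3% and 0.656% of all genes, and 0 members were lower at an unadjusted edgeR p under 0.05, beside 3.91%. Another 6 members had an unadjusted edgeR p under 0.05 without passing the adjusted threshold, all with higher CRS levels: Rgs2, Gnb1, Gnb5, Rgs5, Gng13 and Gng3. With the 4 called genes that makes 10 of 42, or 23.8%, beside 9.67% of all tested genes. DESeq2 called 10 members higher, 22.2% of the 45 it adjusted, beside 6.84% of all genes. Among the 10 was Rgs10, which had almost no noCRS counts and entered that test through the CRS libraries, so its call adds no support. In 13 of 42 tested members all CRS libraries lay above all noCRS libraries (31.0%, against 10.1% of all tested genes), and in 2 all lay below (4.76%, against 6.74%). The median log2 fold change of the tested members was 0.35, beside -0.02 for all tested genes. Without CRS replicate 2, Rgs4 was the only member called, where 1.79% of tested genes were called higher and 0.223% lower. Rgs4 was also the only member called without CRS replicate 3 (175 of 17164 tested genes called higher) or without CRS replicate 4 (162 of 16828).

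**Figure D1:**
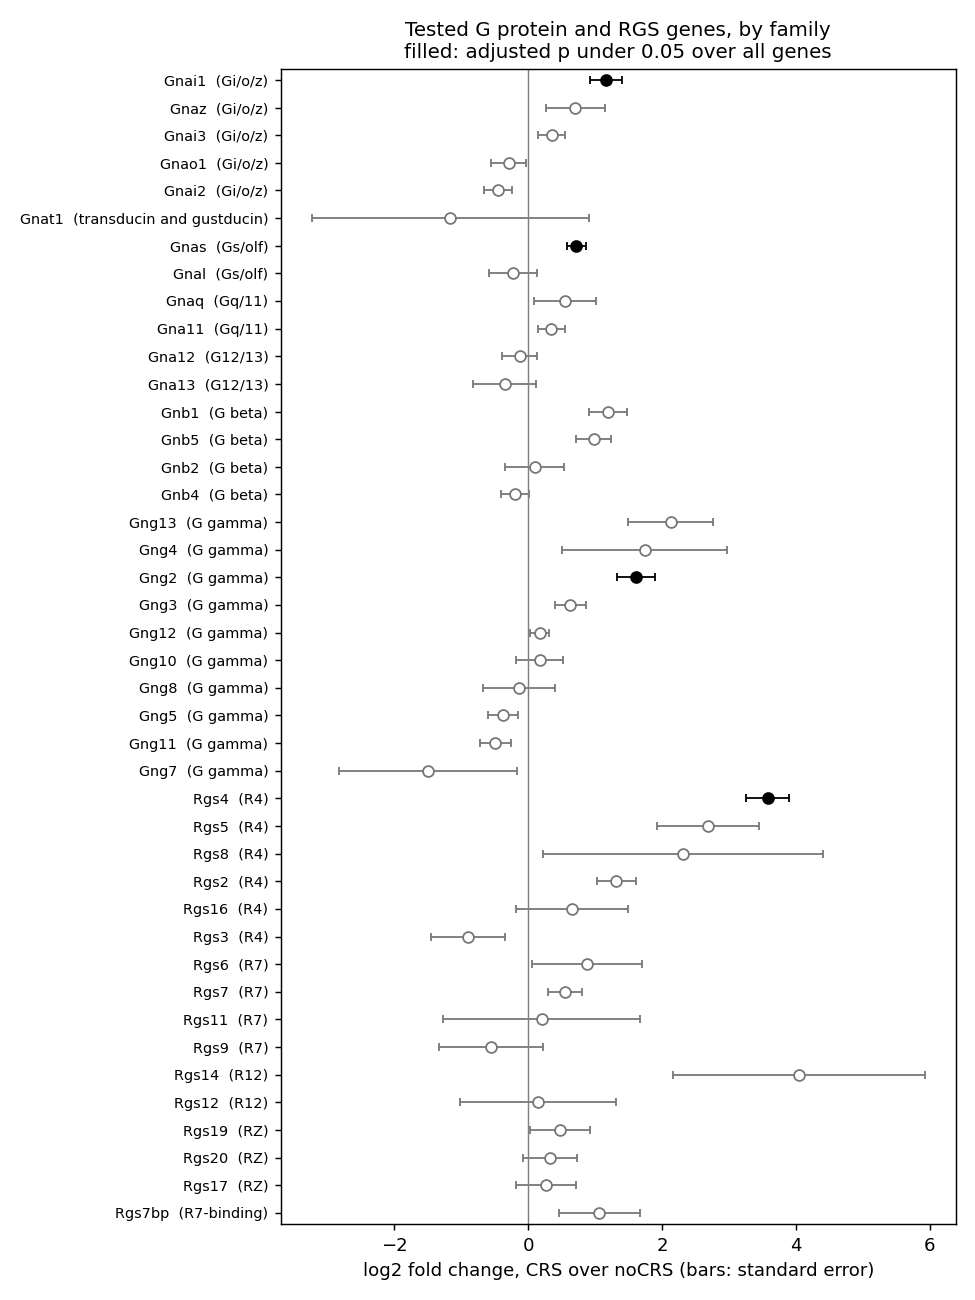
Log2 fold change (CRS over noCRS) of the 42 tested G protein and RGS genes, grouped by family, with standard errors as bars and filled points for adjusted p under 0.05. The filled points are Gnai1, Gnas, Gng2 and Rgs4, and Rgs4 lies at 3.58.

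Alpha subunits of the Gi/o/z family inhibit adenylyl cyclase and release the beta-gamma dimers that open potassium channels. Gnai1, an inhibitory alpha subunit (chromosome 5, 18265135 to 18360355, minus strand, GRCm38), measured 359, 388, 327 and 365 CPM in CRS replicates 1 to 4, against 227, 135 and 121 CPM in noCRS replicates 1 to 3. The groups did not overlap, the CRS libraries lay close together and noCRS replicate 1 was the highest of its group. Gnai1 was 2.23-fold higher in CRS (log2 fold change 1.16 ± 0.23 SE, adjusted p = 0.0453 by edgeR). The call held only when noCRS replicate 1 was the library left out (edgeR adjusted p = 0.0163); leaving out each of the other 6 in turn ended it, with values up to 0.182.

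The other members of that family did not pass the threshold and did not share a direction. Gnai2, the inhibitory subunit also known from glia, vessels and immune cells, averaged 113 ± 24.9 CPM in CRS and 155 ± 19.9 CPM in noCRS (SD, n = 4 and 3; log2 fold change -0.45 ± 0.21 SE, adjusted p = 0.393 by edgeR). Gnai3, widely expressed, averaged 135 ± 18.1 CPM in CRS and 106 ± 22.8 CPM in noCRS (edgeR adjusted p = 0.564). Gnao1, the alpha-o subunit that is the major G protein of neuronal membranes, averaged 96.98 ± 29.7 CPM in CRS and 119 ± 17.2 CPM in noCRS (edgeR adjusted p = 0.774). Gnaz, a pertussis-toxin-resistant inhibitory subunit, averaged 21.5 ± 5.31 CPM in CRS and 13.3 ± 4.81 CPM in noCRS (edgeR adjusted p = 0.608). The CRS and noCRS libraries overlapped in all 4 genes.

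Gnas encodes the stimulatory alpha subunit, which activates adenylyl cyclase, and lies in an imprinted locus with several start sites (chromosome 2, 174284320 to 174346744, plus strand). It measured 516, 537, 442 and 483 CPM in the CRS libraries, against 325, 275 and 302 CPM in the noCRS libraries. Every CRS library lay above every noCRS library, and the spread within each group was small. Gnas was 1.64-fold higher in CRS (log2 fold change 0.72 ± 0.14 SE, adjusted p = 0.0416 by edgeR), the smallest of the 4 rises. Leaving out each of the 7 libraries in turn ended the call (edgeR adjusted p 0.0663 to 0.185). The count is not strand-resolved: Gm20721, a gene model on the opposite strand, had 98.1 to 99.7% as many counts as Gnas in every library, so that the reads assigned to the 2 genes cannot be told apart. Gnasas1, which shares 38.5% of its exon bases with genes on the other strand, Gnas among them, had 0 counts in all 4 CRS libraries and 5, 18 and 49 counts in the noCRS libraries, too few to be tested.

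Gnal, the stimulatory subunit of olfactory and striatal neurons, averaged 24.3 ± 7.74 CPM in CRS and 28.4 ± 5.80 CPM in noCRS (edgeR adjusted p = 0.894). The CRS and noCRS libraries overlapped. Striatal neuron markers, given here for Gnal and for Gng7, Rgs9 and Adcy5 further on, differed in direction, and none passed edgeR's adjusted threshold. Tac1 measured 54.1 to 193 CPM in CRS and 37.3 to 55.6 CPM in noCRS, and Ppp1r1b 30.8 to 47.9 CPM in CRS and 13.3 to 23.5 CPM in noCRS. Penk measured 15.8 to 55.2 CPM in CRS and 0 to 2.53 CPM in noCRS, and Pde10a 7.71 to 14.4 CPM in CRS and 11.5 to 40.8 CPM in noCRS. The dopamine receptor gene Drd1 measured 0 to 22.8 CPM in CRS and 0 in every noCRS library. The part of these markers in the values of the 4 genes was not tested.

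Gq/11 subunits activate phospholipase C beta, and G12/13 subunits act on the actin cytoskeleton. Gna11 averaged 131 ± 26.8 CPM in CRS and 103 ± 3.29 CPM in noCRS (edgeR adjusted p = 0.555), and Gnaq 35.9 ± 19.1 CPM in CRS and 24.5 ± 7.87 CPM in noCRS (edgeR adjusted p = 0.758). Gna12 averaged 93.2 ± 24.8 CPM in CRS and 102 ± 21.7 CPM in noCRS (edgeR adjusted p = 0.915), and Gna13 47.2 ± 18.0 CPM in CRS and 60.2 ± 34.6 CPM in noCRS (edgeR adjusted p = 0.872). The groups of all 4 overlapped, and the fold changes of Gna12 and Gna13 changed sign without noCRS replicate 1 (0.070 and 0.15). Gna14 and Gna15, further genes of the Gq class, had 0 counts in noCRS and counts in CRS replicates 3 and 4 alone (75 and 129 for Gna14, 92 and 6 for Gna15), below the filter.

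Gβ subunits form a tight dimer with Gγ subunits. Gnb1 was by far the most abundant of them per kilobase of exon. It measured 762, 1053, 839 and 1658 CPM in the CRS libraries, against 516, 493 and 408 CPM in the noCRS libraries (chromosome 4, 155491361 to 155559269, plus strand). No library overlapped, and CRS replicate 4 was the highest, but the difference did not pass the threshold (log2 fold change 1.19 ± 0.28 SE, adjusted p = 0.0737 by edgeR; DESeq2 adjusted p = 0.00138). Gnb5, the atypical beta subunit that pairs with R7 RGS proteins in place of a gamma subunit, measured 78.3, 136, 125 and 120 CPM in CRS, against 50.4, 75.0 and 49.97 CPM in noCRS. Its lowest CRS library, replicate 1, lay just above its highest noCRS library (edgeR adjusted p = 0.111; DESeq2 adjusted p = 0.00743).

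Gnb4 averaged 117 ± 13.8 CPM in CRS and 134 ± 33.4 CPM in noCRS (edgeR adjusted p = 0.825), and Gnb2 14.9 ± 2.78 CPM in CRS and 13.9 ± 4.74 CPM in noCRS (edgeR adjusted p = 0.970). Neither differed beyond its spread between libraries. Gnb3, the beta subunit of cone photoreceptors, had 11 counts in CRS replicate 4 and 0 in the other libraries of both groups.

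Gγ subunits are small prenylated proteins that anchor the dimer to the membrane, and some mark cell types. Gng2 (chromosome 14, 19872559 to 19977627, minus strand), a broadly expressed gamma subunit, measured 59.4, 96.2, 70.2 and 81.3 CPM in CRS, against 24.1, 18.7 and 32.6 CPM in noCRS. The groups were well apart: the lowest CRS library held more than any noCRS library. It was 3.05-fold higher in CRS (log2 fold change 1.61 ± 0.28 SE, adjusted p = 0.028 by edgeR). The call held without CRS replicate 1 or noCRS replicate 3 and ended without each of the other 5 libraries (edgeR adjusted p up to 0.117). Gng2 shares 20.4% of its exon bases with Gm48283 on the opposite strand, which had 12.9 to 30% as many counts.

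Gng3, the gamma subunit best known from neurons, was the most abundant member of all per kilobase, at 272 ± 83.5 CPM per kilobase in CRS and 176 ± 14.2 in noCRS. It measured 402, 651, 355 and 381 CPM in CRS, against 306, 263 and 301 CPM in noCRS. CRS replicate 2 stood above the other 3 libraries of its group, and the difference did not pass the threshold (log2 fold change 0.63 ± 0.23 SE, adjusted p = 0.250 by edgeR). Gng3 shares 24.2% of its exon bases with Bscl2 on the opposite strand. Bscl2 had 31.3 to 48.0% as many counts in CRS and 61.0 to 69.8% in noCRS. The part of shared reads in the level and fold change of Gng3 was not tested.

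Gng13, a gamma subunit of taste and retinal cells and of some neurons, measured 20.8, 20.7, 6.90 and 14.8 CPM in CRS, against 2.15, 4.24 and 4.47 CPM in noCRS (edgeR adjusted p = 0.164; DESeq2 adjusted p = 0.0026). It shares 51.6% of its exon bases with Chtf18 on the opposite strand, and Chtf18 had 76.5 to 101% as many counts in each library, so the 2 genes cannot be told apart. Gng4 averaged 28.8 ± 9.26 CPM in CRS and 8.64 ± 7.47 CPM in noCRS, with 0.0241 CPM in noCRS replicate 1 and no overlap (edgeR adjusted p = 0.678). Both had wide spreads relative to their levels.

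Gng11, Gng5 and Gng7 had negative fold changes, as did Gng8 (log2 fold change -0.14 ± 0.54 SE), given in the next paragraph. Gng11, abundant in endothelial cells, measured 66.6, 104, 123 and 85.6 CPM in CRS, against 118, 150 and 133 CPM in noCRS (log2 fold change -0.49 ± 0.23 SE, adjusted p = 0.406 by edgeR), with CRS replicate 3 inside the noCRS range. Summed endothelial markers (7, Cldn5 and Slco1a4 highest) were 43.2 to 232 CPM in CRS and 48.4 to 210 CPM in noCRS. Gng5, a widely expressed subunit, lay lower in every CRS library, at 35.5 to 43.9 CPM in CRS and 46.6 to 59.0 CPM in noCRS (edgeR adjusted p = 0.555). Gng7, a partner of Gnal in the striatum, measured 16.004, 0, 10.3 and 3.70 CPM in CRS, against 16.4, 26.3 and 20.9 CPM in noCRS (edgeR adjusted p = 0.773). Gng5 and Gng7 were the 2 tested members whose CRS libraries all lay below noCRS.

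Gng12, Gng10 and Gng8 overlapped between the groups and did not pass the threshold. Gng12 measured 243 to 285 CPM in CRS and 205 to 249 CPM in noCRS (edgeR adjusted p = 0.757). Gng10 measured 70.7 to 105 CPM in CRS and 37.1 to 102 CPM in noCRS, and Gm20503, a gene model on the same strand that covers 72.0% of its exon bases, had 101 to 110% as many counts. Gng8 measured 5.34 to 14.8 CPM in CRS and 8.66 to 15.6 CPM in noCRS (edgeR adjusted p = 0.961). Gngt2 had 64 counts in CRS replicate 4 and 0 elsewhere, and Gngt1, of rod photoreceptors, had 0 in every library.

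**Figure D2:**
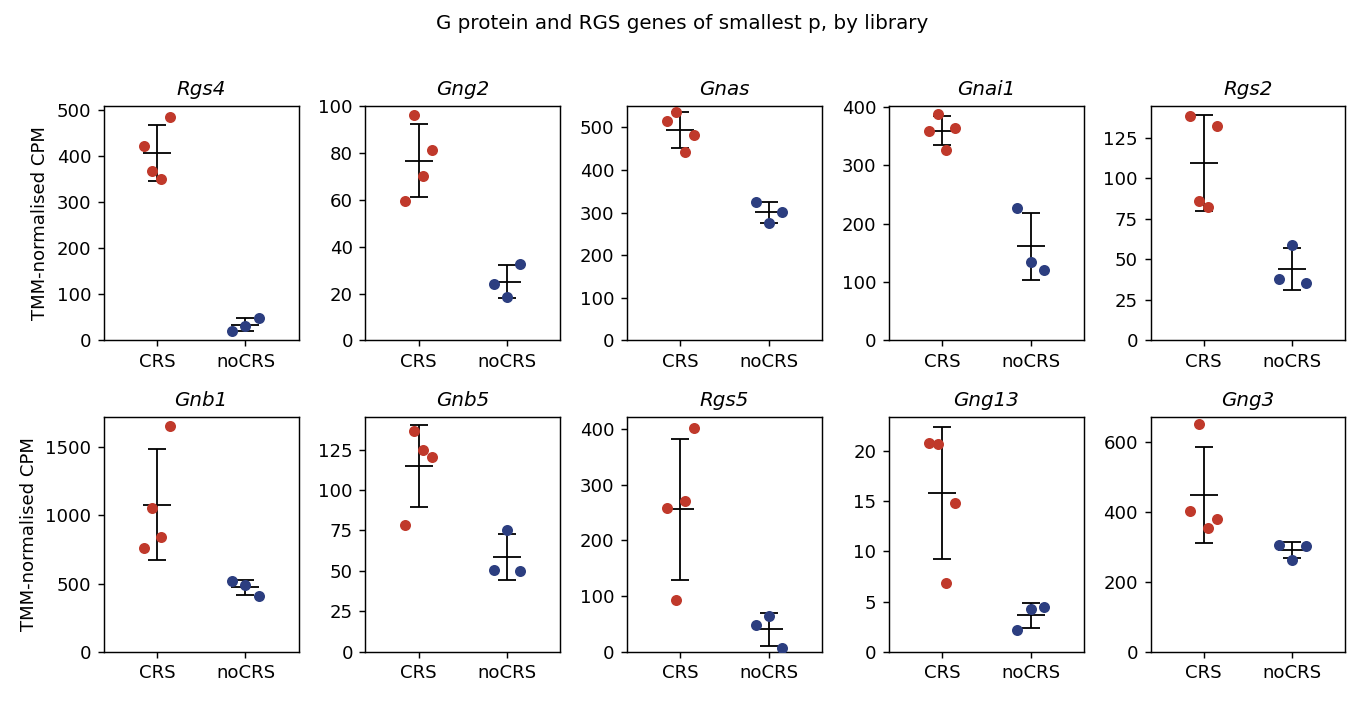
TMM-normalised CPM in each library (points) with the group mean and SD (bars) for the 10 G protein and RGS genes with an unadjusted edgeR p under 0.05; CRS at left, noCRS at right. In all 10 panels the lowest CRS library lies above the highest noCRS library; Rgs4 runs from 352 to 486 CPM in CRS and from 20.9 to 49.3 CPM in noCRS.

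Among the RGS genes, the R4 family of small RGS proteins, which act on Gi/o and Gq alpha subunits, held the only one past the threshold. Rgs4 (chromosome 1, 169741477 to 169747642, minus strand) measured 422, 368, 352 and 486 CPM in CRS, against 20.9, 32.2 and 49.3 CPM in noCRS. The lowest CRS library stood several times above the highest noCRS library. Rgs4 was 11.9-fold higher in CRS (log2 fold change 3.58 ± 0.32 SE, adjusted p = 0.00226 by edgeR), and it was the only member whose call held with each of the 7 libraries left out in turn (edgeR adjusted p 0.00568 to 0.0168). Per kilobase it was the third of all members in CRS, at 131 ± 19.6 CPM per kilobase, beside 11.01 ± 4.61 in noCRS.

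Rgs2, an RGS protein with a preference for Gq that is also induced by activity, measured 138, 86.0, 82.5 and 132 CPM in CRS, against 37.6, 58.8 and 35.7 CPM in noCRS. The groups did not overlap, but the difference fell short of the threshold (log2 fold change 1.32 ± 0.29 SE, adjusted p = 0.0607 by edgeR; DESeq2 adjusted p = 0.00067). Rgs5, best known as a pericyte gene, measured 258, 93.1, 270 and 402 CPM in CRS, against 48.0, 65.0 and 6.62 CPM in noCRS. CRS replicate 2 was the lowest of its group and noCRS replicate 3 far below the other 2, and the test did not pass (log2 fold change 2.68 ± 0.76 SE, adjusted p = 0.139 by edgeR; DESeq2 adjusted p = 0.00212). The summed pericyte and smooth muscle markers (8, Vtn and Acta2 highest) were 196, 54.6, 87.0 and 151 CPM in the same CRS libraries. In the noCRS libraries they were 92.7, 97.7 and 51.7 CPM. Rgs5 and this sum shared the lowest library of each group and the highest noCRS library. The highest CRS library differed, replicate 4 for Rgs5 and replicate 1 for the sum. The markers did not share a direction. Mean levels of Vtn, Kcnj8, Tagln, Higd1b and Abcc9 were higher in CRS, and those of Pdgfrb, Acta2 and Myh11 lower. Pdgfrb averaged 1.02 ± 1.98 CPM in CRS and 8.38 ± 4.83 CPM in noCRS. Acta2 was highest in CRS replicate 2 among the CRS libraries. The part of these markers in the Rgs5 difference was not tested.

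The remaining R4 genes were low. Rgs3, which also occurs as long isoforms, measured 5.15 to 29.5 CPM in CRS and 24.4 to 43.5 CPM in noCRS (log2 fold change -0.90 ± 0.55 SE, adjusted p = 0.593 by edgeR), the only tested R4 gene with a negative fold change. Rgs16 measured 2.48 to 7.19 CPM in CRS and 2.07 to 3.08 CPM in noCRS (edgeR adjusted p = 0.864), and Rgs8, of Purkinje cells, 0 to 16.5 CPM in CRS and 0 to 4.14 CPM in noCRS (edgeR adjusted p = 0.778). Rgs13 had 141 and 103 counts in CRS replicates 1 and 4 and 0 in the other 5 libraries. Rgs1, Rgs18 and Rgs21, known from immune cells, platelets and taste cells, had 0 counts in all 7. Blood markers, for comparison, summed to 0 to 11.5 CPM in CRS and 0 in noCRS (6, Hba-a1 and Hbb-bs highest, with S100a8, S100a9 and Cd3e at 0 in every library).

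The R4 genes lie together in the genome: 9 of 10 are on chromosome 1. Rgs2, Rgs13, Rgs1, Rgs21 and Rgs18 lie within 776 kb of each other, and of these 5 neighbours Rgs2 alone had counts in every library. Rgs5 and Rgs4 lie on opposite strands with their 3′ ends facing each other, 45.7 kb apart. Among the 6 tested R4 genes, these neighbours had the largest fold changes. Rgs13, not tested, had counts in CRS replicates 1 and 4 alone. Its CRS mean was 60.8-fold the floor of 3 counts over the noCRS group, a limit of counting error only.

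Promoter windows are shown for the called members with 1 RefSeq start and for Rgs2, the member next in order of p. Gnas, with several starts that gene counts do not separate, is left out. Each window runs from 250 bases before to 50 bases after the RefSeq start (GRCm38.p6), 5′ to 3′ on the gene's strand, at chr1:169747593-169747892 for Rgs4, chr14:19976644-19976943 for Gng2, chr5:18360364-18360663 for Gnai1 and chr1:144004100-144004399 for Rgs2, all on the minus strand. Capitals mark matches, on either strand, to TGACGTCA (the cAMP response element, CRE), TGACG (its half-site, contained in the full element), TGANTCA (AP-1), GCGTGGGCG (EGR), GGGCGG (the GC box) and TATAAA (the TATA box).
Rgs4: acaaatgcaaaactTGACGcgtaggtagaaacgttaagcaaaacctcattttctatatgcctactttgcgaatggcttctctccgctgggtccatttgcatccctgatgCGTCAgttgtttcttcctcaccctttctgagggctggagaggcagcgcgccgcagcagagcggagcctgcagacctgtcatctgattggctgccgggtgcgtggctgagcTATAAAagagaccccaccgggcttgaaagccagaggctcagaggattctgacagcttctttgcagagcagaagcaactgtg
Gng2: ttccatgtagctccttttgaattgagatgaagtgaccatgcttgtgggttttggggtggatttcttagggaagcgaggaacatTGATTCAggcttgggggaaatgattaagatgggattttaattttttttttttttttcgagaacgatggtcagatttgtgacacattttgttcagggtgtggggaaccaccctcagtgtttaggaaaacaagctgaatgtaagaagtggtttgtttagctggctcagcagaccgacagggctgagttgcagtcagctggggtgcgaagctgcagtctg
Gnai1: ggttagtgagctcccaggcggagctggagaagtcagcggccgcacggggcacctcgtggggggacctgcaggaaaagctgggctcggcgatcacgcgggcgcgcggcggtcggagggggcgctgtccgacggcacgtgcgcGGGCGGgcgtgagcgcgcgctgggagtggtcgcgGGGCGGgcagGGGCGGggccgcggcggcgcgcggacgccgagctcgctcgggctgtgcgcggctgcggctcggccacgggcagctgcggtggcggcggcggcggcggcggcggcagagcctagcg
Rgs2: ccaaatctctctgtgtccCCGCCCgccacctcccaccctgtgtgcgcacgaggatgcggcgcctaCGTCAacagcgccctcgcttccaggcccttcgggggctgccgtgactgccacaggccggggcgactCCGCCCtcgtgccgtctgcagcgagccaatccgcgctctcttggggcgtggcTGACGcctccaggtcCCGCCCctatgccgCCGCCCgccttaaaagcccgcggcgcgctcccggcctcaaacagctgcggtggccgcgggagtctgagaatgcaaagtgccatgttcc

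The Rgs4 window held a TATA box whose first base is 31 bases before the start, and 2 CRE half-sites. Rgs2 held 2 half-sites and 4 GC boxes, Gnai1 3 GC boxes, and Gng2 an AP-1 match alone. Of all 32851 windows of this length, 20.8% held a CRE half-site, 35.7% a GC box, 13.6% a TATA box, 7.81% an AP-1 match, 1.79% a full CRE and 0.612% an EGR match. Of the 54 windows of the 41 members with an entry, 25.9% held a half-site, 50% a GC box, 16.7% a TATA box, 7.41% an AP-1 match, 1.85% an EGR match and none a full CRE. The counted gene models of Gng2 and Gnai1 start at other bases, 19977627 and 18360355, which lie outside their windows. These are matches of letters in a short window and describe no site or cause.

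R7 RGS proteins act on alpha-o and alpha-i in neurons, bound to Gnb5 and anchored by Rgs7bp, also known as R7BP. Rgs7 measured 134, 90.9, 93.2 and 153 CPM in CRS, against 97.6, 77.0 and 66.3 CPM in noCRS (log2 fold change 0.55 ± 0.25 SE, adjusted p = 0.393 by edgeR). CRS replicates 2 and 3 lay inside the noCRS range. Rgs7bp measured 83.7, 51.7, 53.0 and 90.3 CPM in CRS, against 6.51, 45.0 and 49.0 CPM in noCRS (edgeR adjusted p = 0.547). Its groups did not overlap, by a narrow margin, and noCRS replicate 1 was far below the other libraries.

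Rgs9, whose longer form is enriched in striatum, measured 24.6, 7.64, 7.46 and 5.78 CPM in CRS, against 5.50, 10.8 and 33.9 CPM in noCRS (edgeR adjusted p = 0.876). In each group 1 library was far above the others. Rgs6 measured 3.07 to 7.58 CPM in CRS and 1.28 to 4.16 CPM in noCRS (edgeR adjusted p = 0.787), and Rgs11 0 to 13.7 CPM in CRS and 2.57 to 13.2 CPM in noCRS (edgeR adjusted p = 0.983). Rgs9bp, the retinal anchor, had 0 counts in all 7 libraries.

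R12 proteins carry further domains beside the RGS domain, and Rgs14 is known from hippocampal area CA2 neurons. Rgs14 measured 26.2, 11.5, 13.2 and 12.8 CPM in CRS, against 0, 2.89 and 0 CPM in noCRS. No library overlapped, and all 90 noCRS counts were in replicate 2 (log2 fold change 4.05 ± 1.88 SE, adjusted p = 0.405 by edgeR). Without noCRS replicate 2 the noCRS mean was 0 and Rgs14 was called (edgeR adjusted p = 0.0241). In that fit Rgs14 passed the filter through the CRS libraries alone, so the call adds no support. Rgs12 measured 25.0, 5.30, 5.51 and 13.002 CPM in CRS, against 7.14, 25.7 and 0.277 CPM in noCRS (edgeR adjusted p = 0.984), and its spread within each group was wider than any difference. Rgs10, a short RGS protein of microglia and neurons, fell below edgeR's filter. It had 167, 0, 4 and 159 counts in CRS and 0, 1 and 0 counts in noCRS. DESeq2 called Rgs10 (adjusted p = 0.0256), but the gene entered that test through the CRS libraries, so the call adds no support.

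RZ proteins prefer alpha-z and other Gi/o subunits. Rgs17 averaged 32.7 ± 12.4 CPM in CRS and 27.2 ± 14.4 CPM in noCRS (edgeR adjusted p = 0.898), Rgs19 20.99 ± 7.76 CPM in CRS and 15.1 ± 3.42 CPM in noCRS (edgeR adjusted p = 0.787), and Rgs20 30.6 ± 13.7 CPM in CRS and 24.4 ± 6.09 CPM in noCRS (edgeR adjusted p = 0.862). All 3 overlapped between the groups. Rgs22 had 0 counts throughout. Beside these, Gnat1 of rods ranged from 0 to 1.49 CPM in CRS and from 0 to 2.86 CPM in noCRS (edgeR adjusted p = 0.907), while Gnat2 of cones and Gnat3, gustducin, had 0 counts in every library.

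Added up per kilobase of exon, the RGS class differed most between the groups and the gamma class least. The 21 RGS genes summed to 301, 201, 246 and 349 CPM per kilobase in CRS, against 67.1, 80.3 and 68.3 in noCRS. Rgs4 made up 48.8 ± 6.77% of that sum in CRS and 15.4 ± 6.95% in noCRS, while Rgs7 made up 7.12 ± 0.55% in CRS and 18.7 ± 4.71% in noCRS. Without Rgs4, the other 20 genes summed to 82.7 to 193 CPM per kilobase in CRS and 52.4 to 69.9 in noCRS. Without Rgs4 and Rgs5, 19 genes summed to 62.2 to 108 in CRS and 49.8 to 55.6 in noCRS. With Rgs2 also left out, the remaining 18 genes summed to 38.5 to 69.4 in CRS and 39.4 to 41.1 in noCRS. Only this last pair overlapped, through CRS replicate 2 alone. The genes left out had the smallest edgeR p of the RGS class, so this choice followed the outcome. These sums and shares are given without a test.

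Among alpha subunits, Gnai1 made up 35.9 ± 2.65% of the per-kilobase sum in CRS and 21.3 ± 5.21% in noCRS, and Gnai2 9.30 ± 1.80% in CRS and 17.6 ± 4.17% in noCRS. Gnai1 had the larger share of the pair in all 4 CRS libraries. It also did in noCRS replicate 1 (27.3%, beside 13.4% for Gnai2) and narrowly in replicate 2 (18.4%, beside 17.6%), while in noCRS replicate 3 Gnai2 had the larger share (21.7%, beside 18.2% for Gnai1). The alpha sum was 313 to 333 CPM per kilobase in CRS and 212 to 265 in noCRS. These shares divide by the deposited exon length, 11387 bases for Gnas and 3135 for Gnai1. Gnas shares 21.6% of its exon bases with opposite-strand genes. Gm20721, among them, had 98.1 to 99.7% as many counts as Gnas. The per-kilobase level of Gnas may thus be understated, which was not tested. Among beta subunits, Gnb1 held 79.1 to 88.4% in CRS and 73.7 to 78.7% in noCRS, and Gnb4 1.87 to 4.38% in CRS and 6.19 to 8.12% in noCRS. Among gamma subunits, Gng3 held 39.2 to 54.4% in CRS and 32.1 to 43.7% in noCRS, and Gng11 14.7 to 24.3% in CRS and 28.5 to 32.7% in noCRS.

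**Figure D3:**
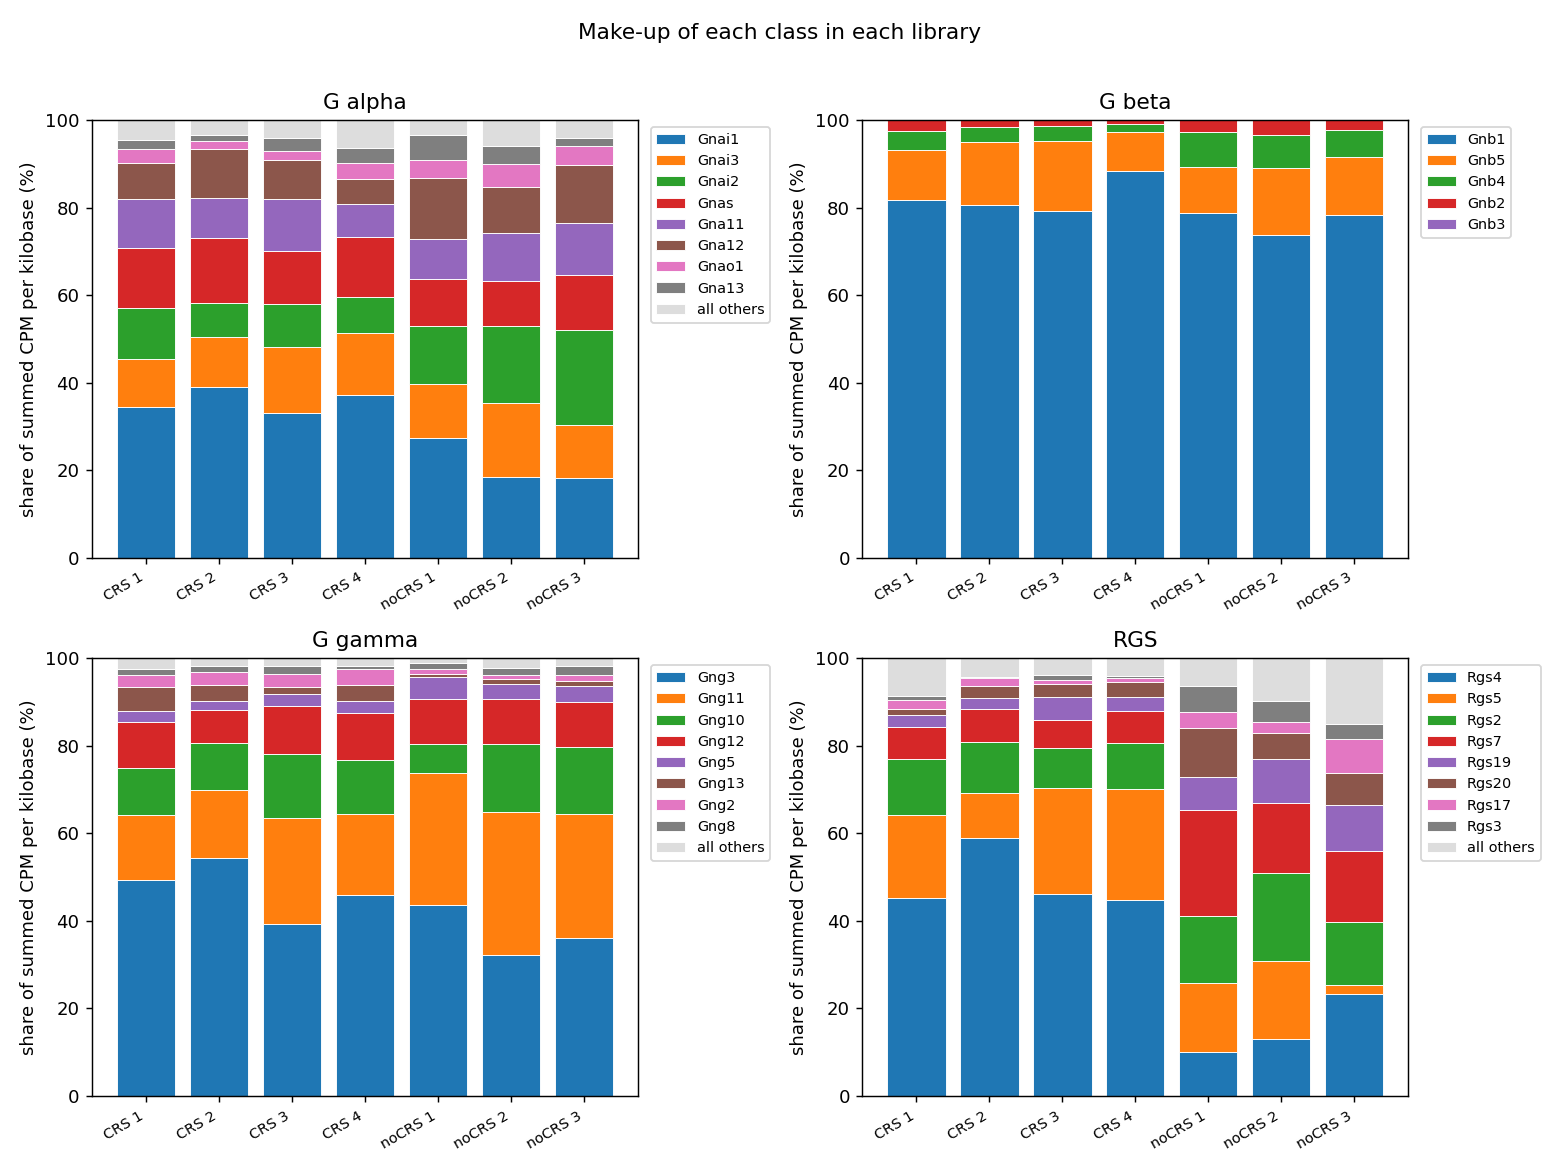
Share of each gene in the summed CPM per kilobase of its class (percent) in each library, CRS replicates 1 to 4 at left and noCRS replicates 1 to 3 at right; rarer genes are pooled as all others in 3 panels. Rgs4 fills 44.9 to 59.0% of the RGS bar in CRS and 10.04 to 23.3% in noCRS, and Gnai1 33.1 to 38.9% of the alpha bar in CRS and 18.2 to 27.3% in noCRS.

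Effectors and regulators that act with these proteins were read from a list of 44 genes, 36 of them tested. Of these, 3 rose (8.33%, beside the 2.07% of all tested genes) and edgeR called 0 lower. At an unadjusted edgeR p under 0.05, 6 were higher (16.7%, beside 9.67% of all tested genes) and 4 lower (11.1%, beside 3.91%). The 6 include Adcy10, described below, which passed the filter through the CRS libraries alone and adds no support. DESeq2 called 1 lower, beside 2.3% of all genes, and limma-voom 0, beside 0.656%. The median log2 fold change of the list was 0.44. All 3 rises were subunits of protein kinase A, the kinase that cAMP activates.

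Prkacb, a catalytic subunit, measured 205, 159, 233 and 286 CPM in CRS, against 61.2, 57.2 and 46.1 CPM in noCRS (4.02-fold higher, log2 fold change 2.01 ± 0.24 SE, adjusted p = 0.00626 by edgeR). Prkar1b, a regulatory subunit known from neurons, measured 153, 111, 82.3 and 144 CPM in CRS, against 29.7, 15.3 and 25.9 CPM in noCRS (5.19-fold higher, log2 fold change 2.37 ± 0.32 SE, adjusted p = 0.0103 by edgeR). Prkar1a, the widely expressed regulatory subunit, measured 1628, 1585, 1528 and 1320 CPM in CRS, against 687, 704 and 737 CPM in noCRS (2.14-fold higher, edgeR adjusted p = 0.00774), a call lost without noCRS replicate 2 (adjusted p = 0.0501). In these 3 genes the groups lay far apart relative to their spread. The other kinase subunits had positive fold changes short of the threshold: Prkaca averaged 76.7 ± 11.3 CPM in CRS and 51.5 ± 6.86 CPM in noCRS (edgeR adjusted p = 0.240), Prkar2b 62.9 ± 9.98 CPM in CRS and 36.3 ± 8.84 CPM in noCRS (edgeR adjusted p = 0.186) and Prkar2a 48.0 ± 21.4 CPM in CRS and 31.7 ± 13.7 CPM in noCRS (edgeR adjusted p = 0.682).

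The cyclases and the other effectors did not move together. Adcy10, the soluble adenylyl cyclase, which G proteins do not regulate, averaged 2.76 ± 1.53 CPM in CRS, while every noCRS library held 0 counts. Its CRS mean was 96.8-fold the floor of 3 counts over the noCRS group, a limit of counting error only. Adcy10 passed the expression filter through the CRS libraries alone, so its tests add no support (edgeR adjusted p = 0.0535, limma-voom adjusted p = 0.0323). Adcy5, the cyclase typical of striatum, measured 9.17 to 13.1 CPM in CRS and 19.3 to 22.0 CPM in noCRS (edgeR adjusted p = 0.375), and was the gene that DESeq2 called lower (adjusted p = 0.00789). Phospholipase C beta genes differed in sign, with Plcb1 at 84.9 ± 20.6 CPM in CRS and 62.4 ± 7.18 CPM in noCRS (edgeR adjusted p = 0.519) and Plcb3 at 3.35 ± 2.57 CPM in CRS and 14.6 ± 4.05 CPM in noCRS (edgeR adjusted p = 0.289). Grk3, a receptor kinase, measured 18.5 ± 10.7 CPM in CRS and 47.6 ± 20.2 CPM in noCRS (edgeR adjusted p = 0.237), and the potassium channel subunit Kcnj3 10.6 ± 4.96 CPM in CRS and 2.93 ± 3.03 CPM in noCRS (edgeR adjusted p = 0.465).

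**Figure D4:**
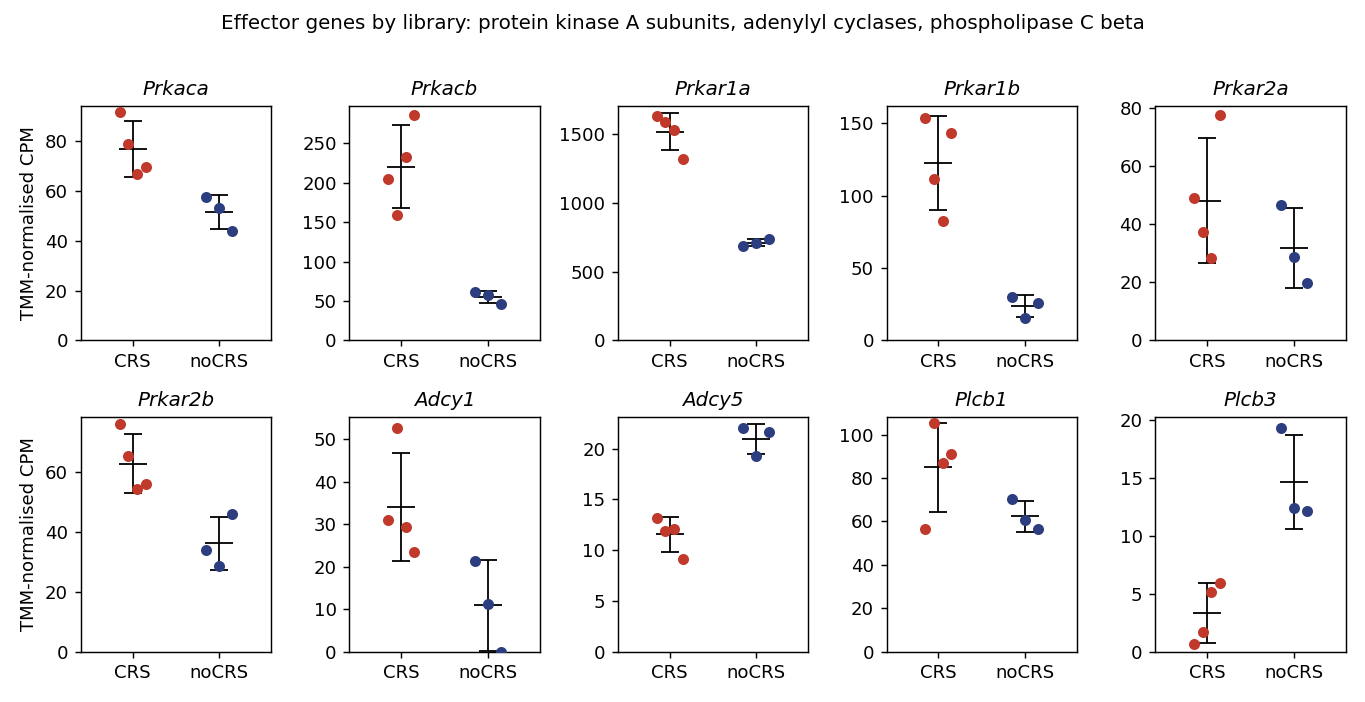
TMM-normalised CPM in each library (points) with the group mean and SD (bars) for 10 effector genes; CRS at left, noCRS at right. Prkacb, Prkar1a and Prkar1b lie well above noCRS in every CRS library, while Adcy5 and Plcb3 lie below it without passing the threshold.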

How the data were processed

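The authors deposited raw counts per gene for 7 libraries, 4 CRS and 3 noCRS; the submitters' processing notes list GRCm38 and, without versions, featureCounts, HISAT, HISAT2, FastQC and DESeq2. Column names, per the file headers, carry an ending that STAR, another aligner, writes by default, so the aligner was not settled. Libraries came from TruePrep DNA Library Prep Kit V2, and no step that marks strand is named, per the labels' protocols. Some pairs of genes with overlapping exons had nearly equal counts, so reads there can count for both; 20 of the 57 members share exon bases with another gene. Of the members, 56 matched GENCODE M21 in symbol, start and end.

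CRS was compared with noCRS by edgeR 4.0.16 (R 4.3.3), with filterByExpr, TMM factors, a quasi-likelihood fit without covariates and Benjamini-Hochberg adjusted p-values over 17833 genes. A run on simulated data, of smaller spread than these data, checked the code alone. Standard errors of fold changes come from the F statistic, errors of levels are SDs over libraries. CPM per kilobase divides by the deposited exon length, which counts every annotated exon base. Ranks and shares between genes therefore depend on the annotation. DESeq2 1.42.0 and limma 3.58.1 (voom with quality weights), other scalings, filters and thresholds, left-out libraries and a replicate block were alternatives. The named genes were members past the threshold, those with an unadjusted p under 0.05, the 2 most abundant per kilobase in each family, any at 0 in a whole group with at least 5 CPM in the other (none was found), the called effectors filled to 4 by p and the 2 most abundant markers of each cell type; the rest were named after their values were seen, to account for all. The summed levels of 3 marker lists are not reported here. Members and lists were chosen with earlier results of these data known. The thalamic and habenular list (7 markers, Tcf7l2 and Calb2 highest) summed to 85.3 to 172 CPM in CRS and 79.2 to 188 CPM in noCRS. The inhibitory list (10, Sst and Gad1) summed to 220 to 896 CPM in CRS and 68.6 to 76.6 CPM in noCRS. CRS replicate 2 held the 896 CPM, and the other CRS libraries 220 to 345 CPM. Of the inhibitory list, Gad2, Dlx1 and Pvalb overlapped between the groups. Dlx2 went the other way, at 0 to 2.21 CPM in CRS and 4.27 to 5.67 CPM in noCRS.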

Additional observations from a re-analysis of the deposited data

Results flagged for a closer look

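In 3 of 46 genes examined in the 4 CRS libraries, 1 library lay far from the other 3, measured by its gap to the nearest library over the whole range; chance gives about 1 in 20 such groups. Rgs9 measured 24.6 CPM in CRS replicate 1, where the other CRS libraries held 5.78 to 7.64 CPM. Rgs14 measured 26.2 CPM in CRS replicate 1, where the others held 11.5 to 13.2 CPM. Gng3 measured 651 CPM in CRS replicate 2, where the others held 355 to 402 CPM.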

How the results depend on the processing

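The 4 members called higher became 10 with DESeq2's Wald test, 2 with DESeq2 size factors, with library totals alone or with no filter on low counts, 1 at a threshold of 0.01, and 0 with the replicate number as a block, under which 12 genes were called in all. Leaving out 1 library gave 1 to 2. No member was called lower in any of these fits. Of the effector list, 3 called higher became 5 with DESeq2's Wald test and 0 with the replicate block, and DESeq2's Wald test called 1 lower; leaving out 1 library gave 2 to 3 higher and 0 lower. Same-numbered libraries did not deviate together (correlations 0.0153, -0.00319 and 0.0228), so the numbers were not taken as pairs. Rgs4 kept a log2 fold change of 3.34 to 3.94 with 1 library left out and 3.56 with the replicate block (edgeR adjusted p = 0.0731). With 1 library left out, log2 fold changes ran from -0.30 to 0.070 for Gna12, -0.72 to 0.15 for Gna13, -1.27 to 0.48 for Rgs9, -0.48 to 1.72 for Rgs12 and -0.037 to 0.56 for Rgs20. Signs turned in these 5 genes: Gna12 (0.037 with the replicate block, 0.0055 without CRS replicate 4, 0.070 without noCRS replicate 1), Gna13 (0.010 with limma-voom, 0.15 without noCRS replicate 1), Rgs9 (0.48 without noCRS replicate 3), Rgs12 (-0.0064 with library totals alone, -0.48 without CRS replicate 1, -0.073 and -0.43 without noCRS replicates 1 and 3) and Rgs20 (-0.014 with the replicate block, -0.037 without CRS replicate 4). The cause was not tested. The biological coefficient of variation was 0.919, which limits what 7 libraries can show for any 1 gene.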
